A study of Mus musculus with 12 samples.

Results

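Neurl3, Arid5a and Kansl3 lie next to each other on mouse chromosome 1, and their RNA was followed across both forms of IRF7 and with and without interferon alpha (IFNα). They were picked by gene name, 3 of the 27503 genes in the deposited table, after higher values had been seen in the mutant line, so the mutant against wild-type values below describe them and carry no test. All 3 passed the filter on low counts that kept 17590 genes. In brief, Neurl3 was higher in the mutant line in every library. Arid5a was higher by less, mainly with IFNα, and Kansl3 showed no difference beyond the spread between its libraries.

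Neurl3 encodes a neuralized-family E3 ubiquitin ligase, an enzyme that attaches ubiquitin to other proteins. It was first described in mouse lung as a gene switched on by inflammation, and its protein has been reported to attach ubiquitin chains to IRF7. Arid5a encodes a protein with an AT-rich interaction domain that binds RNA and, in mouse immune cells, stabilises messengers such as Il6 and Stat3 against the RNase Regnase-1 (Zc3h12a). Kansl3 encodes a subunit of the NSL complex, in which the acetyltransferase Kat8 modifies histone H4.

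The cells were B16F10, a mouse melanoma line that makes pigment-cell proteins. The 4 groups were IRF7-C435A mutant with IFNα, IRF7-C435A mutant control, wild type with IFNα and wild-type control, with 3 libraries each. IRF7 is a transcription factor of the type I interferon system, and in C435A a cysteine is replaced by alanine. All 4 groups share the B16F10 background. The IFNα dose and time, what the control cells received, how C435A was introduced and whether the mutant line is 1 clone are not given in the labels. No value in a count table reads the C435A change itself, so the genotype rests on the labels. The labels name no separate cultures, so each p-value reflects spread between libraries that may be technical.

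Library totals lay between 60511573 and 75927461 counts. The summed level of 7 melanocytic markers, such as Mlana and Pmel, was 7020 to 8010 CPM in the mutant groups and 7850 to 9370 CPM in the wild-type groups. CPM is a count set against its library total and brought to a common scale, here after TMM adjustment, which assumes that most genes do not differ. Transcripts of lung epithelium, such as Sftpc, were present in 8 of 12 libraries, at 40.5 to 62.4 CPM summed over 9 markers. These were mutant IFNα 3, all mutant controls, all wild-type IFNα libraries and wild-type control 1. The other 4 libraries held 0.822 to 0.913 CPM. Mutant IFNα 3 also stood apart from its replicates. Over 7276 genes with a mean of at least 10 CPM, the SD of its log2 ratio to them was 0.403 and 0.423, against 0.244 between those and 0.202 to 0.392 in the other groups. In bulk RNA, fewer cells of a type and less RNA per cell cannot be told apart.

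In the deposited coordinates Neurl3 (ENSMUSG00000047180) spans 36303678 to 36313760 of chromosome 1 on the minus strand. Arid5a (ENSMUSG00000037447) spans 36346814 to 36363110 on the plus strand, and Kansl3 (ENSMUSG00000010453) 36374811 to 36408262 on the minus strand. Neurl3 and Arid5a are transcribed away from each other across a gap of 33.1 kb, and Arid5a and Kansl3 towards each other with 11.7 kb between them. None of the 3 overlaps another gene of the table. Uggt1, on the Neurl3 side, is 20.3 kb from Neurl3, and Fer1l5 is 3.1 kb beyond Kansl3. The deposited starts are 39081 bases above those of the GRCm38 annotation for these 3 genes and for 66 of the 67 genes within 2 Mb that the annotation holds, so spacing is not affected but the numbers are not GRCm38 positions.

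The promoters are shown because neighbours may share sequence that controls them. They were taken from RefSeq on GRCm38.p6, 250 bases before to 50 bases after each start, and are printed 5′ to 3′ on the strand of the gene. Neurl3 is at chr1:36273376-36273675 (minus strand), Arid5a at chr1:36307483-36307782 (plus strand) and Kansl3 at chr1:36369132-36369431 (minus strand). The RefSeq start is that of the deposited gene, after the offset, for Arid5a and Kansl3, but for Neurl3 it lies 1254 bases inside the deposited gene, so the Neurl3 window is that of the RefSeq transcript only. Capitals mark the matches to the motifs searched on both strands.
Neurl3: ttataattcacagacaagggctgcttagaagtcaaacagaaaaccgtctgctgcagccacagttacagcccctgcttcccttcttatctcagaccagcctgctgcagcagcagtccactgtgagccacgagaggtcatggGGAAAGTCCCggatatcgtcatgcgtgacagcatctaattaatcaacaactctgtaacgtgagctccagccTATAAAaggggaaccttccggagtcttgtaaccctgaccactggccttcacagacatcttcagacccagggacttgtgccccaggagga
Arid5a: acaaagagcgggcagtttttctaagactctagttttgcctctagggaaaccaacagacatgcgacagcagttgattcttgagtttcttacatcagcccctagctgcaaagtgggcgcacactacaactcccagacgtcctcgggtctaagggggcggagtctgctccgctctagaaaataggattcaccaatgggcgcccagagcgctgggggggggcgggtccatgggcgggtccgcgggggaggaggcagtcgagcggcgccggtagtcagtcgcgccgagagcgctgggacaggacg
Kansl3: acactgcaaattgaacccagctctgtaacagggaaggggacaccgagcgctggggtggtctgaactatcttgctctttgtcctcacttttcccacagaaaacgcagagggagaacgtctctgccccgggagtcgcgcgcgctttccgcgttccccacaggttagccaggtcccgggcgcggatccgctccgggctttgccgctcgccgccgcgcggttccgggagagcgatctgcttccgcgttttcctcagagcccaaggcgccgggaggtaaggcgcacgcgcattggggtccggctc
The Neurl3 promoter had 51.7% G or C and 7 CpG dinucleotides, against a median of 52.7% and 7 over 32851 promoters of the same length. The promoters of Arid5a and Kansl3 were richer, with 60.3% and 22 CpG for Arid5a and 64.3% and 32 CpG for Kansl3. Matches were found only in the Neurl3 promoter. An NF-kB site, a motif of the inflammatory factor NF-kB that 8.46% of promoters hold, lay 110 to 101 bases before the start on the opposite strand. The letters TATAAA, held by 13.6% of promoters and searched after the sequence had been seen, lay 39 to 34 bases before the start. No window held the core of an interferon response element, GAAA repeated after any 2 bases, which 3.44% of promoters hold. TTCNNNGAA, which STAT factors bind, and TGANTCA, the site of AP-1, were also not in these windows, and 8.3% and 7.81% of promoters hold them. A match describes the letters only, and no match says nothing about a factor.

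Neurl3 differed most. It had 69.6, 64.0 and 55.1 CPM in the mutant IFNα libraries and 28.1, 34.7 and 42.6 CPM in the mutant controls. It had 23.1, 23.0 and 23.2 CPM in the wild-type IFNα libraries and 17.7, 19.7 and 18.8 CPM in the wild-type controls. The 4 groups did not overlap, so that mutant IFNα was highest, then mutant control, wild-type IFNα and wild-type control. The group means were 62.9 ± 7.31, 35.1 ± 7.27, 23.1 ± 0.102 and 18.7 ± 1.04 CPM in that order (SD, n = 3 each). The mutant libraries also had the larger SDs. With IFNα, mutant over wild type was 1.45 ± 0.143 on the log2 scale, 2.72-fold (edgeR, log2 fold change ± standard error). Without IFNα it was 0.91 ± 0.142, 1.87-fold. Leaving out mutant IFNα 3, the value with IFNα was 1.53 ± 0.144. In FPKM, which the authors scaled for transcript length and depth, Neurl3 had 20.1, 18.9 and 15.8 in mutant IFNα and 8.05, 9.9 and 12.1 in mutant control. It had 7.78, 6.8 and 6.87 FPKM in wild-type IFNα and 5.16, 5.83 and 6.22 FPKM in wild-type control, so that the order of the 4 groups was the same.

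Arid5a followed the same order of group means in CPM, at smaller steps. It had 48.7, 45.5 and 44.5 CPM in mutant IFNα and 31.7, 34.9 and 30.7 CPM in mutant control. It had 31.4, 29.9 and 31.4 CPM in wild-type IFNα and 26.5, 29.6 and 28.5 CPM in wild-type control. Mutant IFNα lay above all other libraries, whereas mutant control and wild-type IFNα overlapped. The means were 46.2 ± 2.21 in mutant IFNα and 32.4 ± 2.19 CPM in mutant control, 30.9 ± 0.897 in wild-type IFNα and 28.2 ± 1.6 CPM in wild-type control (SD, n = 3 each). Mutant over wild type was 0.58 ± 0.0995 with IFNα, 1.49-fold (0.61 ± 0.106 without mutant IFNα 3), and 0.20 ± 0.0995 without, 1.15-fold. Without IFNα the groups did not overlap in CPM, but the lowest mutant control (30.7 CPM) and the highest wild-type control (29.6 CPM) were close. In FPKM the order did not hold, with means of 2.37 in mutant control and 2.45 in wild-type IFNα. Mutant control (2.33, 2.55 and 2.22 FPKM) then overlapped wild-type control (1.98, 2.24 and 2.41 FPKM). Mutant IFNα (3.59, 3.44 and 3.26 FPKM) stayed above all other libraries.

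Kansl3 showed no separation. It had 27.9, 38.4 and 31.3 CPM in mutant IFNα and 27.7, 32.3 and 34.3 CPM in mutant control. It had 32.0, 28.6 and 28.8 CPM in wild-type IFNα and 22.2, 26.2 and 34.1 CPM in wild-type control. The groups overlapped in every pair, and the spread within wild-type control alone (27.5 ± 6.04 CPM, SD, n = 3) was wider than the distance between any group means. Mutant over wild type was 0.13 ± 0.161 with IFNα and 0.19 ± 0.161 without.

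Over the 3 genes, 2 had mutant libraries that were all above the wild-type ones in CPM, both with and without IFNα. Of all genes tested, 9.89% did so with IFNα and 12.2% without, and nothing is read from this, since the genes were chosen on these comparisons. By log2 fold change, Neurl3 stood at percentile 97.7 of all tested genes with IFNα and 92.2 without. Arid5a stood at percentiles 89.4 and 69.7, and Kansl3 at 64.8 and 69.0. The median over all tested genes was -0.01 with IFNα and 0 without.

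**Figure D1:**
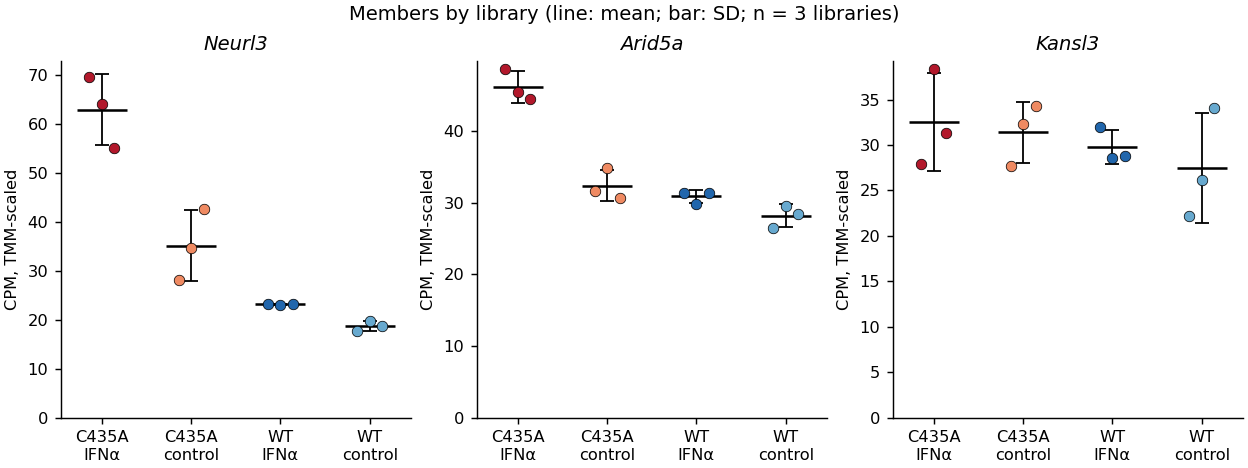
Levels of Neurl3, Arid5a and Kansl3 in each of the 12 libraries, in CPM on linear axes, with the group mean and SD (n = 3). Neurl3 steps down over 4 groups that do not overlap, Arid5a is highest in mutant IFNα, and the Kansl3 groups overlap.

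The IFNα comparisons and the interaction were fitted with the same model. They share libraries with the comparisons on which the genes were chosen, only wild-type ones for IFNα in the wild type. Their p-values are therefore values of the fit across all genes and are not independent of that choice. In the mutant line Neurl3 was 1.79-fold higher with IFNα than without (log2 0.84 ± 0.141), and no library overlapped. Its adjusted p was 0.0973 with edgeR's quasi-likelihood test and Benjamini-Hochberg adjustment, and 2.71e-05 with DESeq2, so the call depended on the test. Arid5a was 1.43-fold higher with IFNα in the mutant line (log2 0.51 ± 0.0996), with adjusted p = 0.164 in edgeR and 0.000438 in DESeq2. Without mutant IFNα 3 the values were 0.93 ± 0.144 for Neurl3 and 0.54 ± 0.106 for Arid5a. Kansl3 was at 0.05 ± 0.161 (adjusted p = 0.94 in edgeR), with an interval of 1.96 standard errors from -0.27 to 0.36. By edgeR none of the 3 passed, where 0.00569% of all genes did, and by DESeq2 2 of 3 passed, where 0.79% of all genes did. For these 2 of 3 genes the IFNα libraries were all above the controls, as for 7.97% of all genes tested.

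In the wild-type line the values were smaller. Neurl3 was at 0.30 ± 0.141 (edgeR adjusted p = 0.919) and Arid5a at 0.13 ± 0.0994 (adjusted p = 1), IFNα over control. For both genes every IFNα library was above every control in CPM, as for 5.48% of all genes tested. Kansl3 was at 0.12 ± 0.161 (adjusted p = 1). None of the 3 passed in edgeR, where 0.0227% of all genes did, or in DESeq2, where 0.37% did.

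The interaction, the IFNα response of the mutant minus that of the wild type, asks whether the responses differ. For Neurl3 it was 0.54 ± 0.199, with an interval of 1.96 standard errors from 0.15 to 0.93. For Arid5a it was 0.38 ± 0.141, from 0.10 to 0.65. For Kansl3 it was -0.07 ± 0.227. In edgeR the unadjusted p was 0.0165 for Neurl3 and 0.0175 for Arid5a, and 5.17% of all genes were under 0.05. The adjusted p was 0.916 for both, and no gene of the table passed (0.0%). DESeq2 gave adjusted p of 0.603 for Neurl3 and 0.574 for Arid5a, and called 0.0796% of all genes. The larger IFNα responses in the mutant line therefore did not pass a test of the difference.

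**Figure D2:**
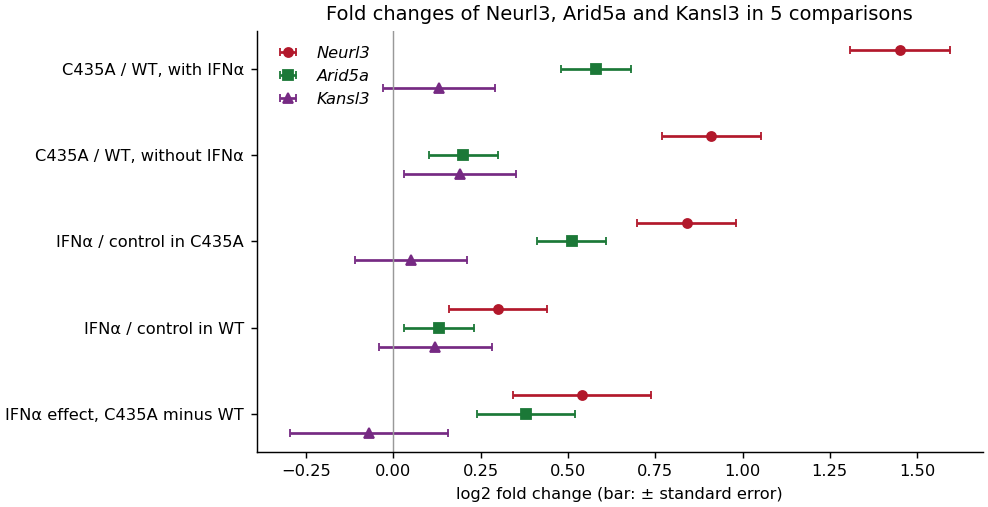
Log2 fold changes (points) ± standard error (bars) from edgeR for the 3 genes in the 5 comparisons, on a linear log2 axis with 0 marked. Neurl3 is farthest from 0 in each. Arid5a and Kansl3 are almost equal for mutant over wild type without IFNα (0.20 ± 0.0995 and 0.19 ± 0.161). They are also almost equal for IFNα over control in wild-type cells (0.13 ± 0.0994 and 0.12 ± 0.161). In the other comparisons Arid5a is next and Kansl3 lies near 0.

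Lung transcripts and the groups were not evenly crossed, and their part in these values was not tested. The highest Neurl3 values, 69.6 and 64.0 CPM, stood in mutant IFNα 1 and 2, which lack lung transcripts. Among the 8 libraries with lung transcripts, Neurl3 was 55.1 CPM in the mutant and 23.1 CPM in the wild type with IFNα (1 library against 3, log2 1.26). Without IFNα it was 35.1 CPM in the mutant and 17.7 CPM in the wild type (3 against 1, log2 0.97). Arid5a gave 0.52 with IFNα and 0.29 without in the same libraries. Within the mutant line, IFNα over control was 0.67 for Neurl3 and 0.46 for Arid5a in libraries with lung transcripts. A term for lung transcripts in the fit gave 1.31 with IFNα and 1.04 without for Neurl3, 0.51 and 0.28 for Arid5a, and -0.05 ± 0.184 and 0.38 ± 0.191 for Kansl3, mutant over wild type. In the libraries with lung transcripts Kansl3 was at 0.07 with IFNα and 0.49 without, so that without IFNα it was above Arid5a in both settings. With the term the interaction was 0.26 ± 0.269 for Neurl3, 0.23 ± 0.198 for Arid5a and -0.42 ± 0.308 for Kansl3. Leukocyte markers summed to 65.8 to 93.2 CPM in mutant IFNα and 113 to 126 CPM in mutant control, 65.5 to 101 CPM in wild-type IFNα and 64.4 to 101 CPM in wild-type control. Most of this came from Lyz2 and Csf1r, and the T-cell marker Cd3e was near 0. By DESeq2, Csf1r was higher in the mutant with IFNα (0.60 ± 0.187, adjusted p = 0.0326) and Lyz2 lower with IFNα in the mutant (-0.87 ± 0.25, adjusted p = 0.0367). Of the melanocytic markers, Tyr was lower in the mutant with IFNα (-0.45 ± 0.145, adjusted p = 0.0402), and edgeR called no marker. DESeq2 called 3.43% of all genes there. At an unadjusted edgeR p under 0.05 were 4 of the 7 melanocytic markers with IFNα (Tyr, Tyrp1, Dct and Mitf), beside 13.7% of all genes. The median of the 7 was -0.32. Without IFNα, 4 of 9 tested leukocyte markers were (Ptprc, Cd79a, Adgre1 and Lyz2), beside 10.7% of all genes, with a median of 0.84. The leukocyte sums were highest in mutant control, and the part of leukocyte and melanocytic markers in the results was not tested.

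Whether other genes of the region differed was asked of the genes within 1 Mb of the Arid5a start. Of these 34 genes 23 passed the filter, and 20 were neither Neurl3, Arid5a nor Kansl3. In the mutant against the wild type, 0 of the 20 passed in edgeR without or with IFNα, where 0.165% and 0.597% of all genes did. At an unadjusted p under 0.05 there were 2 in each, where 10.7% of all genes were without IFNα and 13.7% with it. DESeq2 called 0 without IFNα and 1 with it, where 1.36% and 3.43% of all genes were called, and limma on FPKM called 0 of 13 in each, where 0.347% and 0.555% were called. The median log2 fold change of the 20 genes was 0.12 with IFNα, with 15 above 0, and 0.09 without, with 14 above 0. The libraries did not overlap in 4 genes higher and 0 lower in the mutant with IFNα, and in 5 higher and 1 lower without. Over all genes, 9.89% were higher and 8.52% lower in this sense with IFNα, and 12.2% and 8.01% without. Within 2 Mb, 43 other genes were tested, and edgeR called 0 in either comparison. With IFNα, 10 of the 43 were higher and 1 lower in the mutant without overlap, where 9.89% and 8.52% of all genes were. Without IFNα, 11 were higher and 1 lower, where 12.2% and 8.01% of all genes were. By edgeR, 9 of them had p below 0.05 before adjustment with IFNα and 7 without, beside 13.7% and 10.7% of all genes. The median log2 fold changes of the 43 were 0.13 with IFNα, with 30 above 0, and 0.19 without, with 33 above 0. Over all genes the medians were -0.01 and 0. Whether the 43 genes differ from all genes in these shares was not tested. Limma called 0 of 27 in either comparison. DESeq2 called 4 of the 43 with IFNα and 2 without, beside 3.43% and 1.36% of all genes. They were Ankrd39, Ptpn18 (0.71 ± 0.188), Lipt1 (0.63 ± 0.202) and Imp4 (0.45 ± 0.121) with IFNα, and Ptpn18 (0.67 ± 0.188) and Ccdc115 (0.49 ± 0.142) without, all higher in the mutant and named after their values were seen. Apart from Ankrd39 they lie more than 1 Mb from Arid5a.

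The nearest genes on either side had no call. Uggt1, a sensor of glycoprotein folding and the nearest gene beyond Neurl3, had 39.0 ± 4.79 CPM in mutant IFNα and 45.6 ± 8.65 CPM in wild-type IFNα (SD, n = 3 each). Its log2 fold change, mutant over wild type, was -0.23 ± 0.157 with IFNα and -0.07 ± 0.157 without. Hs6st1, a heparan sulfate sulfotransferase at -239.3 kb from the Arid5a start, was at 0.15 ± 0.189 and 0.10 ± 0.189. Beyond Kansl3, Fer1l5 was barely expressed, at no more than 1.08 CPM in any library, and stood at -0.75 ± 0.458 and -0.21 ± 0.457. Lman2l, a lectin of the secretory pathway that overlaps Fer1l5 on the other strand, was at 0.12 ± 0.124 and 0.03 ± 0.124. Cnnm4 and Cnnm3, linked to magnesium transport, were at 0.07 and 0.08 with IFNα and -0.16 and 0.08 without. Past Hs6st1 the nearest tested genes lie more than 1 Mb away. Of them Plekhb2, at -1457.8 kb, was at 0.33 ± 0.121 with IFNα (edgeR adjusted p = 0.231) and Fam168b at -0.02 ± 0.129. Gm37670 and Gm38336 had few counts, with standard errors of 1.51 and 0.867, as did Gm42417 beyond Kansl3, with 2.22.

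Ankrd39, chosen after its values had been seen, was the 1 gene of the 20 within 1 Mb that DESeq2 called, with IFNα. It lies 229.8 kb from the Arid5a start and overlaps Gm42417 on the same strand. It had 42.0, 40.6 and 34.7 CPM in mutant IFNα against 22.5, 27.1 and 27.8 CPM in wild-type IFNα. It had 36.6, 35 and 42.9 CPM in mutant control against 27.5, 32.4 and 29.8 CPM in wild-type control. Mutant and wild type did not overlap in either pair, and mutant over wild type was 0.60 ± 0.127 with IFNα (adjusted p = 0.0512 in edgeR and 0.00108 in DESeq2). Its neighbour Ankrd23, a muscle ankyrin-repeat protein, was at 0.90 ± 0.261 with IFNα (adjusted p = 0.139 in edgeR). IFNα over control in the mutant was 0.03 ± 0.126 for Ankrd39, against 0.84 ± 0.141 for Neurl3 and 0.51 ± 0.0996 for Arid5a. Ankrd23 was at 0.54 ± 0.26 in the mutant (edgeR adjusted p = 0.497), near Arid5a, and at -0.05 ± 0.261 in the wild type. Its interaction was 0.59 ± 0.368 (edgeR adjusted p = 0.916).

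**Figure D3:**
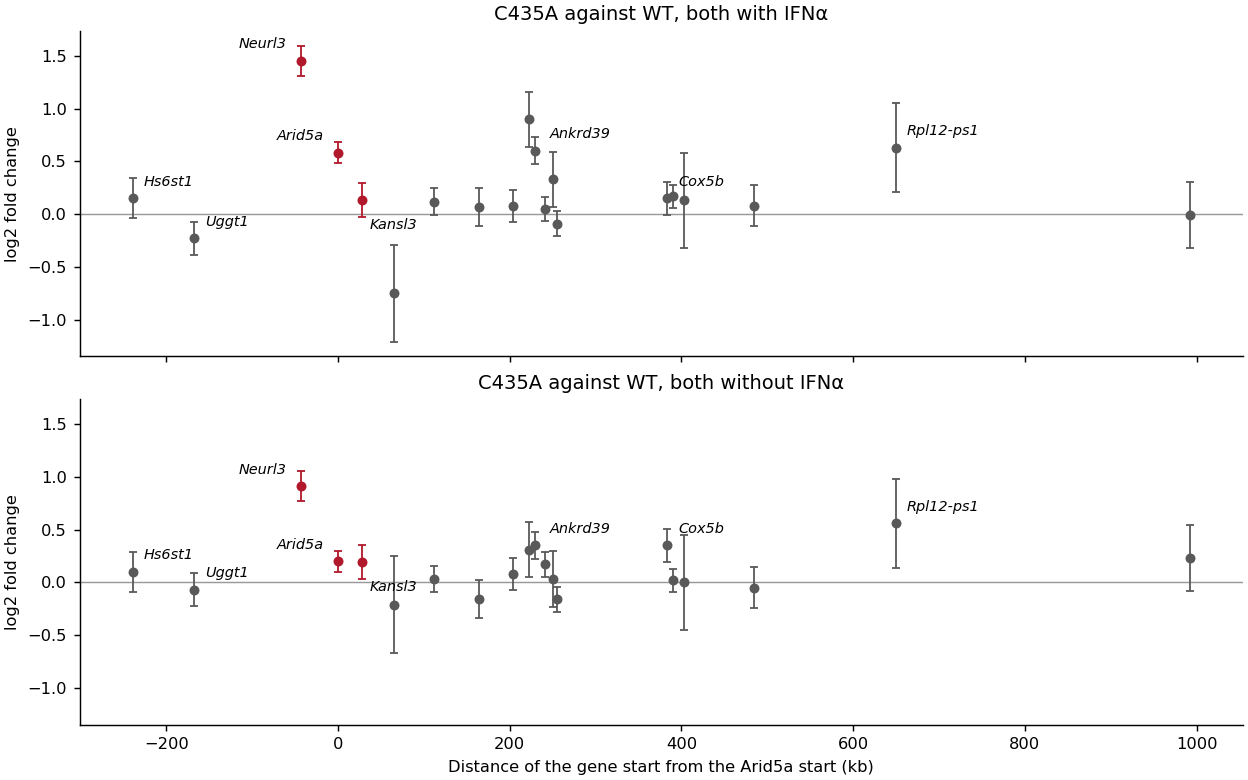
Log2 fold change, mutant over wild type (edgeR, bars show standard errors), against distance of each gene start from the Arid5a start in kb, for the 20 tested genes within 1 Mb with standard errors under 0.5 in both comparisons. Neurl3, Arid5a and Kansl3 are in red. Neurl3 is highest in both panels and Arid5a, at 0.58 with IFNα, is at 0.20 without, while Uggt1 lies below 0. Ankrd23 (0.90), Rpl12-ps1 (0.63) and Ankrd39 (0.60) lie above Arid5a with IFNα. Without IFNα, Rpl12-ps1 (0.56), Ankrd39 and Cox5b (0.35 each), Ankrd23 (0.31) and Inpp4a (0.23) do. The other 3 tested genes had larger errors and are not drawn.

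Co-variation from library to library was measured on log2 deviations from the group means. Over 12 libraries the deviations of Neurl3 and Arid5a had r = 0.198 (permutation p = 0.545, adjusted 0.753) and rho = 0.357 (p = 0.256, adjusted 0.384). Without the 2 libraries farthest from the median of Neurl3, r was 0.685, so the value turned on those libraries. Arid5a and Kansl3 had r = 0.1 (p = 0.753, adjusted 0.753) and rho = 0.105, with r = -0.201 without 2 libraries. Neurl3 and Kansl3 had r = 0.328 (p = 0.299, adjusted 0.753) and rho = 0.378, with r = 0.0534 without 2 libraries. All 3 pairs were tested with 100000 permutations and adjusted by Benjamini-Hochberg, and none passed. The deviations were permuted over all 12 libraries, although they sum to 0 within each group and their spread differs between groups. The permutation p-values here are therefore approximate. On log2(FPKM + 1) r was higher, at 0.411 for Neurl3 and Arid5a (permutation p = 0.183), 0.582 for Arid5a and Kansl3 (p = 0.0505) and 0.527 for Neurl3 and Kansl3 (p = 0.076), with adjusted p of 0.183, 0.114 and 0.114. Without mutant IFNα 3, r on log2 CPM was 0.067 for Neurl3 and Arid5a. Neurl3 deviated most in mutant control 1 and 3, by -0.30 and 0.30 on the log2 scale, beside Arid5a deviations of -0.03 and -0.08.

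No relative of Neurl3 or Arid5a was called, but so few genes of the whole table were that this is not read as a result. Besides Neurl3, 4 neuralized genes were tested, 3 of them also by limma. In edgeR, DESeq2 and limma 0 passed in any of the 5 comparisons. Over all genes limma called 0.0297% for IFNα in each line. For mutant over wild type with IFNα, edgeR and DESeq2 called 0.597% and 3.43% of all genes, their largest shares in the 5 comparisons. The median of the 4 neuralized genes was 0.02 for mutant over wild type both with and without IFNα. Neurl1a was at -0.28 ± 0.153 and Neurl2 at -0.15 ± 0.166 with IFNα, Neurl4 at 0.19 ± 0.167 and Neurl1b at 0.87 ± 1.15. Of them Neurl4 was at an unadjusted p under 0.05 for IFNα in the mutant (0.42 ± 0.168, edgeR adjusted p = 0.427), as were 10.3% of all genes. Of 14 other ARID-domain genes 0 passed in edgeR or DESeq2, with at most 2 at an unadjusted p under 0.05 in a comparison. Limma tested 2 of them and called 0, where it called 0.555% of all genes for mutant over wild type with IFNα. For mutant over wild type with IFNα, 0.597% of all genes passed in edgeR, 3.43% in DESeq2 and 13.7% were at an unadjusted p under 0.05. The medians of the ARID genes were -0.13 with IFNα and -0.22 without.

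The NSL complex of Kansl3 had no call, which is likewise not read as a result. Of 8 other NSL genes 0 passed in any comparison in edgeR, DESeq2 or limma, where edgeR and DESeq2 called 0.597% and 3.43% of all genes with IFNα, 0.165% and 1.36% without. Their medians were 0.11 with IFNα and -0.05 without for mutant over wild type. Kat8, the catalytic subunit, was at 0.18 ± 0.165 with IFNα and the scaffold Kansl1 at 0.09 ± 0.201. Kansl2, Wdr5 and Mcrs1 were at 0.12 ± 0.109, 0.13 ± 0.132 and 0.15 ± 0.111. Hcfc1, Ogt and Phf20 were at -0.16 ± 0.141, -0.13 ± 0.15 and -0.27 ± 0.172. For IFNα in the mutant, Kansl2 was at 0.27 ± 0.11 (edgeR adjusted p = 0.434).

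Messengers that Arid5a is known to stabilise in immune cells, and its partners, were mostly low in these cells. Of 12 on the list 9 were tested, and edgeR called 0 in every comparison, where 0.597% of all genes passed for mutant over wild type with IFNα. The median, mutant over wild type, was 0.13 with IFNα and 0.17 without. Il6 averaged 4.21 ± 1.54 CPM in mutant IFNα and 4.2 ± 1.35 CPM in wild-type IFNα (SD, n = 3 each). It averaged 2.3 ± 0.724 CPM in mutant control and 2.92 ± 1.16 CPM in wild-type control. For IFNα in the mutant, Il6 was the 1 gene of the 9 at an unadjusted edgeR p under 0.05, as were 10.3% of all genes. Stat3 was at -0.29 ± 0.127 with IFNα and -0.37 ± 0.127 without, mutant over wild type (edgeR adjusted p = 0.333 for both). Cebpb, a transcription factor of inflammation, had 3.98, 2.88 and 7.33 CPM in mutant IFNα against 1.88, 1.96 and 1.57 CPM in wild-type IFNα. It was at 1.39 ± 0.427 (adjusted p = 0.163 in edgeR), and DESeq2 called it, 1 of the 9, where it called 3.43% of all genes. Zc3h12a, the RNase that Arid5a opposes, was at 0.13 with IFNα and 0.00 without.

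Genes with the pattern nearest to each of the 3 were ranked by Pearson r of log2 levels over the 12 libraries among 8120 genes with a mean FPKM of at least 1, predicted genes and pseudogenes left out. This is a description, since the groups make up much of r. Nearest to Neurl3 were Snhg17 (r = 0.949), a host of small nucleolar RNAs, Anks3 (0.941), Oas1b (0.94), Gtpbp2 (0.936), a GTPase of ribosome rescue, and Ogg1 (0.931), a DNA repair glycosylase. Arid5a followed at rank 7 (0.929), and Kansl3 at rank 1121 (0.479). Nearest to Arid5a were Gtpbp2 (0.975), Trib3 (0.954), a pseudokinase, Nmral1 (0.946), Ppp1r15a (0.936), a subunit of an eIF2α phosphatase, and Ogg1 (0.933), with Neurl3 at rank 7. Nearest to Kansl3 were Zbtb5 (0.892), Rrn3 (0.869), Son (0.868), Tedc2 (0.866) and Surf6 (0.853). None of these genes is on chromosome 1. Gtpbp2, for example, averaged 60.4 ± 1.91 CPM in mutant IFNα and 42.3 ± 3.42 CPM in mutant control, 40.6 ± 1.03 CPM in wild-type IFNα and 36.3 ± 3.38 CPM in wild-type control (SD, n = 3 each).

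**Figure D4:**
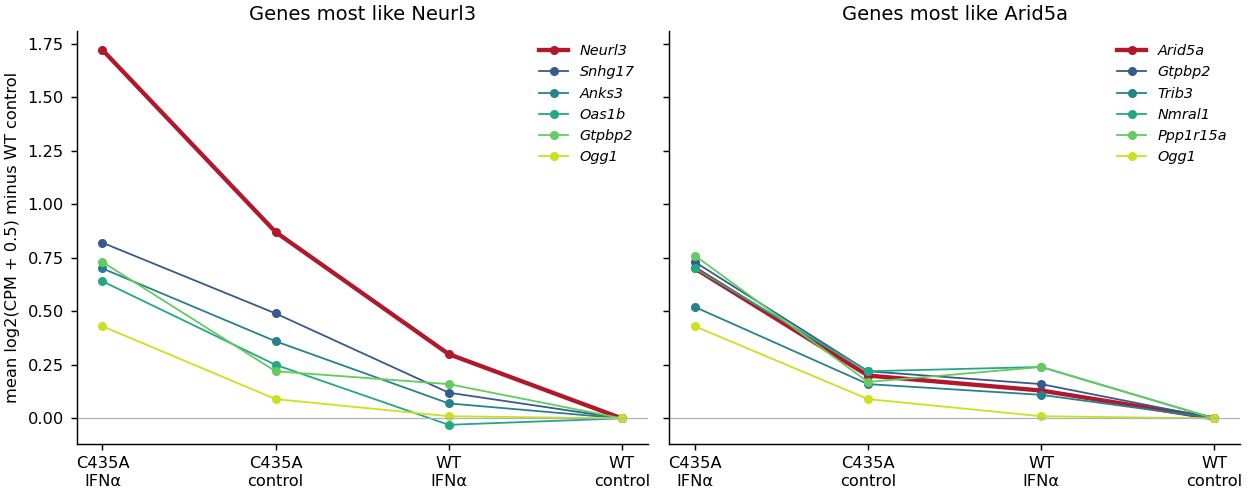
Mean log2(CPM + 0.5) of each group minus that of wild-type control, for Neurl3 and Arid5a and the 5 genes most like each, on a linear log2 axis. Neurl3 lies above its like genes in mutant IFNα and mutant control, and Arid5a runs among its own.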

How the data were processed

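Poly(A) RNA of 12 libraries was sequenced as read pairs from dUTP-stranded, identifier-tagged fragments, per the labels' protocols. Groups come from the labels. The submitters' processing notes list GRCm38 and, without saying what each did, HISAT2 2.0.4, StringTie 1.3.4d, cutadapt 1.9, edgeR, DESeq2 and UMI-tools. Neither the counting method nor any use of strand or identifiers is stated in these sources. Reads of Fer1l5 and Lman2l, which overlap on opposite strands, may therefore not be separated.

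The authors deposited a whole-number count and an FPKM per library for each gene. Per the file headers, the counts are raw, and the FPKM are relative to length and depth. Count over FPKM implies lengths of 3.36 kb for Neurl3, 13.1 kb for Arid5a and 7.04 kb for Kansl3, above the longest annotated transcripts (2.6, 5.5 and 4.66 kb), so FPKM is not compared between these genes.

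Counts were fitted with edgeR 4.0.16 in R 4.3.3 (TMM, default filter, 4 group means, two-sided quasi-likelihood test, Benjamini-Hochberg over 17590 genes, threshold 0.05). The common biological coefficient of variation was 28.9%. A standard error is the absolute log2 fold change divided by the root of F. Alternatives were DESeq2 1.42.0, its size factors in edgeR, library totals, no filter, a lung-transcript term, a replicate block, each library left out, and limma 3.58.1 on log2 of the deposited FPKM plus 1 or 0.1 (10094 genes reaching FPKM 1 in 3 libraries). The code was tested on simulated data.

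The text names the 3 genes, the 6 nearest tested genes on each side, genes within 1 Mb or on a list that passed, all tested neuralized and NSL genes, and the 5 genes most like each. Il6, Stat3, Cebpb, Zc3h12a, Ankrd39, Rpl12-ps1, Cox5b and Inpp4a were picked with their values known. The 3 genes and all lists were chosen with earlier results of these data known.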

Additional observations from a re-analysis of the deposited data

How the results depend on the processing

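The mutant over wild-type values of Neurl3 and Arid5a kept their sign in every fit run, as did their IFNα values in each line. By library totals, Arid5a without IFNα was 0.10 and with IFNα 0.50, mutant over wild type. In limma on log2(FPKM + 1) they were 0.07 and 0.36, and with 0.1 added 0.10 and 0.47, with Neurl3 at 1.24 with IFNα for 1 added. With a term for lung transcripts, Neurl3 and Arid5a with IFNα were 1.31 and 0.51, while Kansl3 turned to -0.05 with IFNα and to -0.12 for IFNα in the mutant, and was 0.38 without IFNα. DESeq2 called Neurl3 (0.84) and Arid5a (0.51) for IFNα in the mutant. Of the genes within 1 Mb, 1 (Ankrd39) was called with IFNα by DESeq2 and by edgeR with DESeq2 size factors. The alternatives for the listed genes were chosen after seeing the data, and in the family, complex and target lists DESeq2 called 1 gene with IFNα, Cebpb. The cause was not tested in these cases.

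Leaving out 1 library at a time gave 1.37 to 1.53 with IFNα and 0.74 to 1.04 without for Neurl3, and 0.54 to 0.61 and 0.14 to 0.24 for Arid5a, mutant over wild type. For IFNα in the mutant, Neurl3 was 0.70 to 1.0 (edgeR adjusted p of 0.0665 to 0.535) and Arid5a 0.47 to 0.57 (0.134 to 0.602). Their interactions were 0.40 to 0.70 and 0.34 to 0.43. Kansl3, near 0, changed sign, with ranges of -0.01 to 0.22 with IFNα, -0.09 to 0.15 for IFNα in the mutant, -0.01 to 0.30 for IFNα in the wild type and -0.24 to 0.07 in the interaction. Genes called within 1 Mb with IFNα numbered 0 to 1, with 1 only without mutant IFNα 3 (Ankrd39, adjusted p = 0.0347).

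The replicate block left Neurl3 at 1.45 with IFNα and 0.90 without, and at 0.85 for IFNα in the mutant (edgeR adjusted p = 0.229). Arid5a was 0.58, 0.20 and 0.51. The labels do not say whether the numbers pair samples. Across groups, same-numbered libraries correlated at -0.521 to 0.398 (median 0.0893) and the others at -0.584 to 0.747 (median 0.0126). Of the 12 libraries, 2 correlated best with their own number. With 3 libraries a group, these values cannot decide whether the numbers pair samples. Over all genes the block moved calls to 59 with IFNα and 17 without, against 105 and 29. Library totals gave 49 and 25, with 32 higher and 17 lower against 83 higher and 22 lower with IFNα, and a median shift of -0.09. Without the filter there were 70 and 21 calls, by limma 56 and 35, and by DESeq2 603 and 240.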
